A study of Mus musculus with 4 samples.

Results

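The genes described are those of the interleukin-2 (IL-2) receptor and its STAT5 pathway: the receptor chain genes Il2ra, Il2rb and Il2rg, the kinase genes Jak1 and Jak3, the transcription factor genes Stat5a and Stat5b, and the STAT5-induced genes Cish, Socs2 and Pim1. They were chosen by name from the platform annotation, 10 of them against 18193 genes with a probe set named by 1 gene. A probe set was found for 9 of the 10, 21 probe sets in all, and Il2rg was not analysed here. Where a gene had several probe sets, the brightest on average stood for it. The main values are log2 signals after quantile normalization, which gives the arrays the same distribution of signals. Signals under 5.29 log2 were treated as background and set to that floor, which came from probe sets of genes that should be silent in thymocytes. On this scale 8 of the 10 genes were above the floor on at least 1 array.

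RNA came from 4 populations of CD4+ CD8- thymocytes of female mice aged 6 to 8 weeks, with 1 Affymetrix mouse 430 2.0 array per population. Foxp3(gfp/gfp) females, whose 2 Foxp3 alleles both carry a knock-in for GFP-Foxp3 as a fusion protein, gave GFP+ cells, called Foxp3-fusion cells below, as well as GFP- CD25+ cells and GFP- CD25- cells. Females with the genotype Foxp3(gfpko/wt), heterozygous for an allele marked as a GFP knockout, gave GFP+ cells, called Foxp3-null cells below. Foxp3 is X-linked, so a GFP+ cell of such a female uses the knockout allele, while other cells of the same animal use the wild-type allele. All 4 groups came from 129/Sv mice backcrossed to C57BL/6, for 2 generations in the Foxp3-null mice and for 4 to 6 generations in the others. Cells were sorted with magnetic beads and then by flow cytometry, straight from the animals. No group had a replicate, so every difference is between 2 arrays, has no error, and carries no test. Neighbouring levels in an order of populations therefore cannot be called different or alike, and the number of arrays limits the precision.

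IL-2 binds a receptor of an alpha chain (CD25, from Il2ra), a beta chain (CD122, from Il2rb) and the common gamma chain (from Il2rg). The alpha chain raises affinity for IL-2 but does not signal, whereas the beta and gamma chains carry the kinases JAK1 and JAK3. These phosphorylate STAT5A and STAT5B, which form dimers, enter the nucleus and bind DNA at the core TTCNNNGAA. Cish, Socs2 and Pim1 are well-known targets of STAT5, and Il2ra itself is induced by it. In the thymus, IL-2 signals through STAT5 help CD25+ precursors of regulatory T cells to switch on Foxp3.

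The Cish promoter is shown because Cish was the single member with the STAT5 core in its promoter window, among the members with a window at hand. The window runs from 250 bases before to 50 bases after the annotated start (RefSeq, GRCm38.p6, chr9:107296409-107296708, plus strand), and capitals mark the core motif.

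Cish promoter: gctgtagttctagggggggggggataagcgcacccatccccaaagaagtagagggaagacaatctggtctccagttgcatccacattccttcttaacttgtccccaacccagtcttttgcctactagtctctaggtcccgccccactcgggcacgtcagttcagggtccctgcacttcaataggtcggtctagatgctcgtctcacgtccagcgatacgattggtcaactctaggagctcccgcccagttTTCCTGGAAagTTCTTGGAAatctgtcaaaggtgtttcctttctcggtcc

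The first match, TTCCTGGAA, spans bases 251 to 259 of this window, and the second, TTCTTGGAA, spans bases 262 to 270, with 2 bases between them. TTCNNNGAA is its own reverse complement, so a search of either strand finds the same sites, and these matches do not overlap. Of 32851 promoter windows of this length in the RefSeq table, 8.30% held at least 1 match and 0.457% held 2 or more. Promoter windows were at hand for 8 members, 11 windows in all, and only the Cish window held a match, or 9.09% of the 11. No window was at hand for Il2rb or Socs2, so these were not searched. A match is a description of the letters and not of binding, and STAT5 sites outside these windows were not searched.

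Foxp3, on which the GFP gate rests, read 8.82 log2 in Foxp3-fusion cells and 7.27 in Foxp3-null cells, against 2.88 in GFP- CD25+ cells and 2.76 in GFP- CD25- cells. This follows the GFP gate but does not check the knockout, since no label states which part of the transcript the knockout allele lacks. All 7 measured T cell markers were above the floor on every array, and Cd8a and Cd8b1 were below it on every array. Of 5 B cell markers measured, Ms4a1 was above the floor, in Foxp3-null cells only at 5.63 log2. Of 8 dendritic cell and macrophage markers, Cst3 read 5.77 log2 in Foxp3-fusion and 5.78 in Foxp3-null cells, against 3.36 in GFP- CD25+ and 3.44 in GFP- CD25- cells, and Csf1r passed the floor in Foxp3-null cells only, at 5.50. Of 6 thymic epithelium markers, Epcam read 6.49 to 7.28 log2 over the 4 arrays and the other 5 were under the floor. The gap between the 3' and 5' control probe sets for actin, a sign of transcript length after amplification, was 5.02 log2 on the Foxp3-fusion array and 7.10 on the Foxp3-null array, against 9.29 and 8.37 on the GFP- CD25+ and GFP- CD25- arrays. The part of these markers and of that gap in the results below was not tested. In sorted bulk RNA, fewer cells of a type and less RNA per cell cannot be told apart.

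Il2ra encodes the chain by which the GFP- cells were split, so its levels against those cells are a description of the sort. Il2ra read 10.35 log2 in Foxp3-fusion cells, 9.11 in Foxp3-null cells, 7.85 in GFP- CD25+ cells and 3.62 in GFP- CD25- cells. For the GFP+ populations no CD25 gate is given in the titles, and both lay above the cells sorted as CD25+ on this probe set. A second Il2ra probe set was much dimmer, at 6.42 log2 in Foxp3-fusion cells, 3.77 in Foxp3-null cells, 5.27 in GFP- CD25+ cells and 2.76 in GFP- CD25- cells. Only the Foxp3-fusion array exceeded the floor on it, so it gives no order for the other populations. Both probe sets put Foxp3-fusion cells highest, by 2.37-fold over Foxp3-null cells on the brighter and by at least 2.19-fold on the dimmer.

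Il2rb encodes the signalling chain that the IL-2 and IL-15 receptors share, and it was not used in the sort. Its signal was 7.59 log2 in Foxp3-fusion cells and 7.25 in Foxp3-null cells, against 4.78 in GFP- CD25+ cells and 3.95 in GFP- CD25- cells. Both GFP+ populations were well above the floor and both GFP- populations were below it, while GFP- CD25+ cells had Il2ra well above it. The Il2rb level of GFP- CD25+ cells lies above a lower floor of 4.46 log2, which results when Afp is left out of the silent genes, so the call of background there depends on the floor. Foxp3-fusion cells exceeded GFP- CD25+ cells for Il2rb by at least 4.92-fold, and Foxp3-null cells did by at least 3.89-fold. Since both GFP- populations sit at the floor, the bounds against GFP- CD25- cells are the same. The other Il2rb probe set read 2.27 to 2.30 log2 on the 4 arrays and gives no information. CD122 also marks natural killer cells. Of 8 measured markers of NK and NKT cells, 2 were above the floor in Foxp3-fusion cells and 2 in Foxp3-null cells, against 1 in GFP- CD25+ cells and 2 in GFP- CD25- cells. The log2 of their summed signal was 7.17 in Foxp3-fusion cells, 7.54 in Foxp3-null cells, 6.96 in GFP- CD25+ cells and 7.98 in GFP- CD25- cells, and the GFP- CD25- sum was carried by Klrd1 at 6.32 and Zbtb16 at 6.39. Like Il2rb, Nkg7 passed the floor in the GFP+ populations only, but its order was reversed within the GFP+ and within the GFP- populations. Nkg7 read 5.88 log2 in Foxp3-fusion cells and 6.25 in Foxp3-null cells, against 2.95 in GFP- CD25+ cells and 4.95 in GFP- CD25- cells. Eomes read 5.40, 6.06, 6.19 and 4.74 log2 in the same order. Ncr1, Klrk1, Tbx21 and Prf1 were under the floor on all 4 arrays, and the part of NK or NKT cells in the Il2rb signal was not tested.

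**Figure D1:**
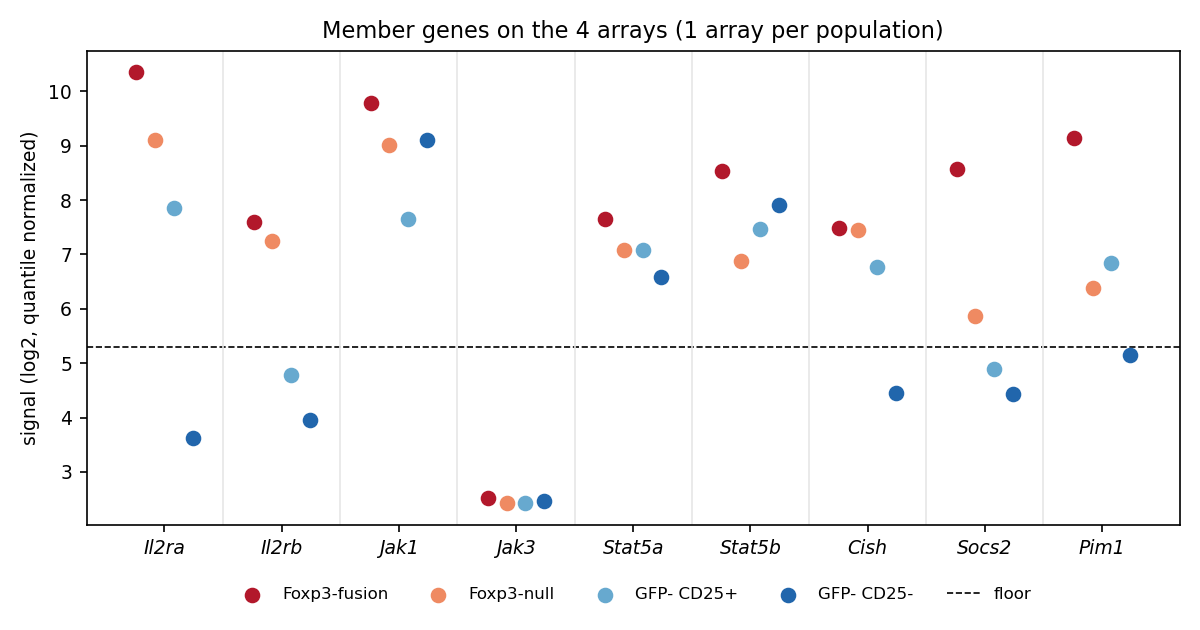
Signal of each gene (vertical axis, log2 after quantile normalization) on the 4 arrays, 1 point per population and the dashed line at the floor of 5.29 log2. Foxp3-fusion cells hold the highest point of every gene above the floor, and Jak3 lies near 2.5 log2 on every array.

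Of the kinase genes, only Jak1 passed the floor on a probe set of its own, so a common pattern could not be judged. Jak1, whose product sits on the beta chain, read 9.79 log2 in Foxp3-fusion cells, 9.02 in Foxp3-null cells, 7.66 in GFP- CD25+ cells and 9.11 in GFP- CD25- cells. It was thus lowest in GFP- CD25+ cells, by 2.73-fold against GFP- CD25- cells. A second Jak1 probe set showed the same dip and made it larger, at 8.66, 8.06, 5.68 and 7.85 log2 in that order of populations. The third was flat by comparison, at 6.14, 6.69, 6.57 and 6.89 log2, and put Foxp3-fusion cells lowest. The differences of Jak1 given below rest on its brightest probe set, and 1 of the other 2 does not share them. Jak3, whose product sits on the gamma chain, had a single probe set of its own, which read 2.43 to 2.52 log2. Another pair of probe sets is annotated to both Jak3 and Insl3 and was not used for Jak3. One of them read 5.03 log2 in Foxp3-fusion cells, 5.62 in Foxp3-null cells, 2.60 in GFP- CD25+ cells and 4.35 in GFP- CD25- cells, above the floor in Foxp3-null cells only, and the other read 2.61 to 2.91. A signal under the floor does not show that a transcript is missing, and Jak3 is needed by all T cells that signal through the gamma chain.

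Stat5a and Stat5b encode closely related transcription factors, and their annotated spans lie 346 bases apart on chromosome 11 in GRCm38.p6. Stat5a read 7.66 log2 in Foxp3-fusion cells, 7.07 in Foxp3-null cells, 7.07 in GFP- CD25+ cells and 6.59 in GFP- CD25- cells. Stat5b read 8.54 log2 in Foxp3-fusion cells, 6.88 in Foxp3-null cells, 7.47 in GFP- CD25+ cells and 7.92 in GFP- CD25- cells. Both were highest in Foxp3-fusion cells, but in the other populations Stat5b was lowest in Foxp3-null cells and Stat5a in GFP- CD25- cells. Foxp3-null cells were 2.05-fold lower than GFP- CD25- cells for Stat5b and 1.40-fold higher for Stat5a. Both main probe sets carry an ID suffix for probes that can match more than 1 transcript of a gene. Whether either main probe set reads the other gene was not tested. The second probe set of each gene was near 2.2 to 2.6 log2 throughout.

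The 3 STAT5-induced genes were all highest in Foxp3-fusion cells and under the floor in GFP- CD25- cells, and they differed in the populations between. Cish encodes an inhibitor that binds the activated receptor. Cish read 7.48 log2 in Foxp3-fusion cells, 7.45 in Foxp3-null cells, 6.77 in GFP- CD25+ cells and 4.45 in GFP- CD25- cells. It was above the floor in all 3 populations that also had Il2ra signal, and below it in GFP- CD25- cells. Socs2 encodes a related inhibitor of cytokine signalling. Socs2 read 8.57 log2 in Foxp3-fusion cells, 5.87 in Foxp3-null cells, 4.89 in GFP- CD25+ cells and 4.44 in GFP- CD25- cells. Socs2 thus stood out in Foxp3-fusion cells, and a second Socs2 probe set gave 8.64, 4.79, 4.96 and 4.02 log2 in that order. Pim1 encodes a kinase that promotes survival and growth. Pim1 read 9.14 log2 in Foxp3-fusion cells, 6.39 in Foxp3-null cells, 6.85 in GFP- CD25+ cells and 5.16 in GFP- CD25- cells.

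**Figure D2:**
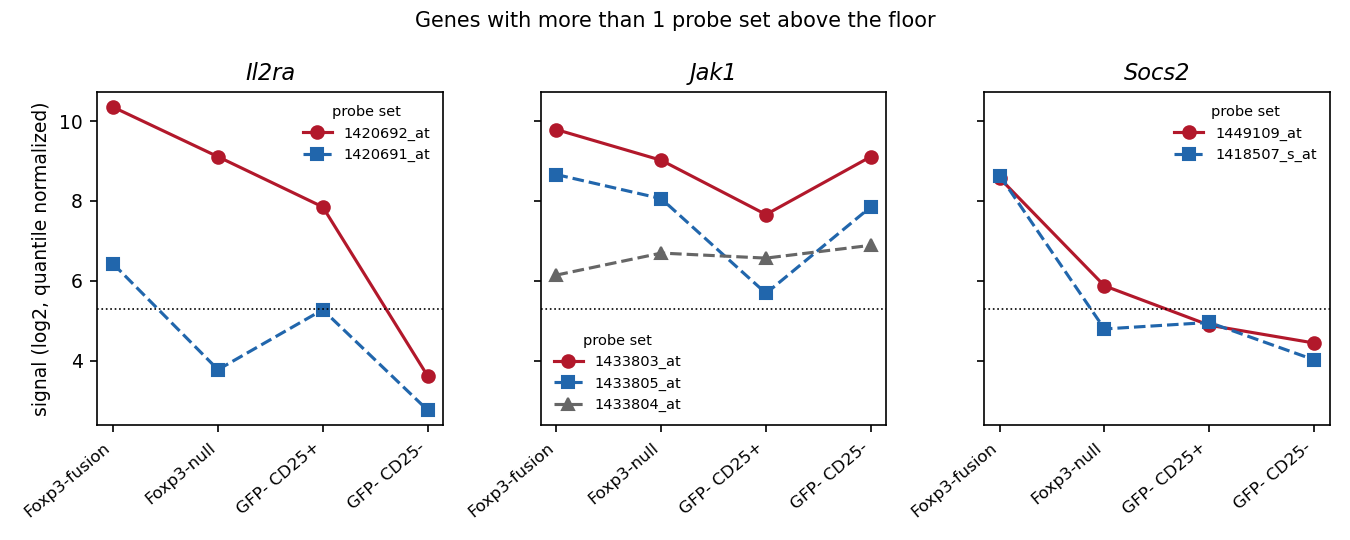
Signal (vertical axis, log2 after quantile normalization) on the 4 arrays for each probe set of Il2ra, Jak1 and Socs2 that passed the floor (dotted line), where lines join the values of 1 probe set. The 2 Socs2 probe sets run together and peak in Foxp3-fusion cells, the dimmer Il2ra probe set passes the floor in Foxp3-fusion cells only, and the dimmest Jak1 probe set is flat.

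Over the 8 genes above the floor, 8 were highest on the Foxp3-fusion array, on the normalized and on the deposited scale. Of all 6866 genes above the floor on at least 1 array, 26.2% were highest on that array, and 50.2% were on the deposited scale, on which that array has the widest spread of signals. GFP- CD25- cells were lowest for 6 of the 8, and Jak1 and Stat5b were the exceptions. These genes were named with earlier results of the same arrays known, so such shares describe them and test nothing. The comparisons that follow share arrays and are not independent of each other.

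Foxp3-fusion cells were set against GFP- CD25- cells, a comparison of CD4+ CD8- thymocytes with GFP and those without GFP or CD25, from mice of the same genotype. The measured receptor chains and the STAT5-induced genes were all higher, and Jak1 and the STAT genes differed less. Of 8 genes measured, 6 reached 2-fold upward and 0 downward, where 10.6% and 5.93% of all 6408 measured genes did. Leaving out the sort gene Il2ra, 5 of 7 were higher. Pim1 was at least 14.4-fold higher, Socs2 at least 9.68-fold, Il2rb at least 4.92-fold and Cish at least 4.55-fold. Stat5a was 2.10-fold higher, whereas Jak1 at 1.60-fold and Stat5b at 1.54-fold were under the threshold. The median log2 difference of the 8 was 2.24, against -0.02 over all genes. With the deposited values the medians were 2.67 and 0.20. Without Il2ra the median on normalized values was 2.19.

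Foxp3-null cells were set against GFP- CD25- cells to ask which of these differences are seen in cells that use the Foxp3 locus from the knockout allele. Il2rb and Cish were higher by bounds close to those of Foxp3-fusion cells, and Socs2 and Pim1 by much lower bounds. Of 8 genes measured, 4 reached 2-fold upward and 1 downward, where 10.4% and 7.77% of all 6552 did. Without Il2ra, 3 of 7 were higher. Cish was at least 4.46-fold higher, Il2rb at least 3.89-fold and Pim1 at least 2.13-fold, and Stat5b was 2.05-fold lower. Socs2 was at least 1.49-fold higher, a bound of 0.58 log2 that became 1.41 log2 with the floor of 4.46. Pim1 fell under 2-fold on the deposited scale, at a bound of 0.91 log2. The median log2 difference was 0.84, against 0.22 over all genes, and 0.68 against -0.05 with the deposited values. Without Il2ra the median on normalized values was 0.58.

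GFP- CD25+ cells were set against GFP- CD25- cells to describe CD25 expression in cells that do not use Foxp3. Cish and Pim1 were higher, Jak1 was lower, and Il2rb and Socs2 were at the floor on both arrays. Of 6 genes measured, 3 reached 2-fold upward, Il2ra among them, and 1 downward, where 4.28% and 4.46% of all 6362 did. Pim1 was at least 2.93-fold higher and Cish at least 2.79-fold higher. Stat5a differed by 0.48 log2 and Stat5b by -0.45 log2. The GFP- CD25+ array also carried Dntt, a gene of immature thymocytes that recombine their receptor genes, at 8.37 log2, against 5.32 in GFP- CD25- cells. CD25 also marks an immature CD4- stage. Rag1, a recombinase gene of immature thymocytes, read 5.22 log2 in GFP- CD25+ cells, just under the floor and above the floor of 4.46, against 3.56 in GFP- CD25- cells. Notch3 was 4.34 log2 in GFP- CD25+ cells and 3.76 in GFP- CD25- cells, under both floors, as were Rag2, Ptcra and Kit. Of the 7 genes on the immature list, Dntt and Il7r were above the main floor. The log2 of the list's summed signal was 9.49 in GFP- CD25+ and 11.29 in GFP- CD25- cells, where Il7r carried it at 11.23. The list's median went the other way, at 4.34 log2 in GFP- CD25+ and 3.73 in GFP- CD25- cells, under both floors. The part of immature cells in the result was not tested.

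**Figure D3:**
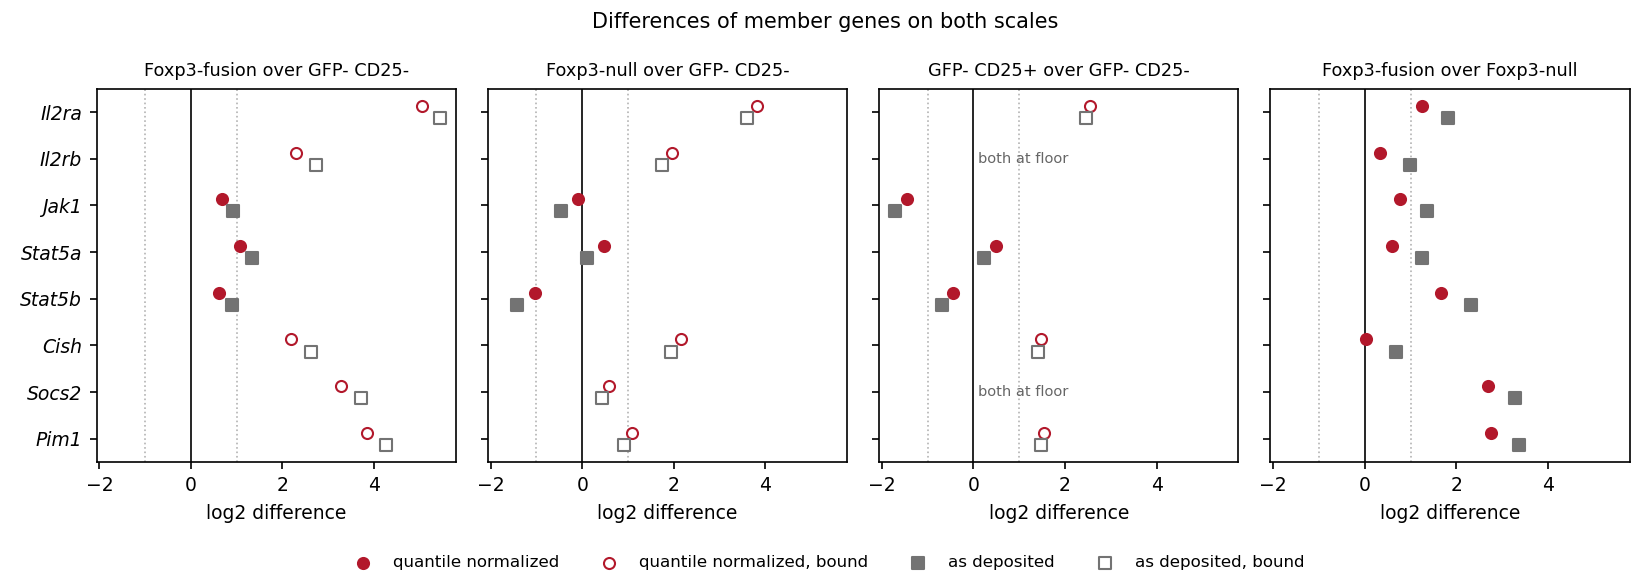
Log2 difference of each gene (horizontal axis) in 4 comparisons, on quantile normalized values (circles) and on values as deposited (squares), with open symbols for lower bounds and dotted lines at 2-fold. Cish lies near 0 in Foxp3-fusion over Foxp3-null cells, whereas Socs2 and Pim1 lie beyond 2.6 log2 on both scales.

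Foxp3-fusion cells were set against Foxp3-null cells to ask what differs between the fusion and the knockout allele among cells that use the Foxp3 locus. The 3 STAT5-induced genes parted here. Socs2 was 6.48-fold higher and Pim1 6.75-fold higher in Foxp3-fusion cells, at ranks 19 and 16 from the top of 6657 genes, while Cish was 1.02-fold apart. Stat5b was 3.16-fold higher and Il2ra 2.37-fold. Jak1 at 1.70-fold, Stat5a at 1.503-fold and Il2rb at 1.26-fold were under the threshold. Of 8 genes measured, 4 reached 2-fold upward and 0 downward, where 9.12% and 8.07% of all 6657 did. Foxp3-null mice also differed in backcross generation, so genotype, mice and array cannot be told apart.

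This comparison depends most on the scale. Without quantile normalization the median over all genes was 0.36 log2 in place of -0.15, a shift of 0.51. Jak1 and Stat5a then passed 2-fold at 1.37 and 1.24 log2, and 6 of the 8 genes reached 2-fold upward and 0 downward, where 21.5% and 2.29% of all genes did. Relative to the median of all genes, Socs2 was 2.85 log2 higher on the normalized scale and 2.91 on the deposited scale, and Pim1 was 2.90 and 3.003 log2 higher. On the same footing Cish was 0.18 and 0.32 log2 higher, and Il2rb 0.49 and 0.63.

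**Figure D4:**
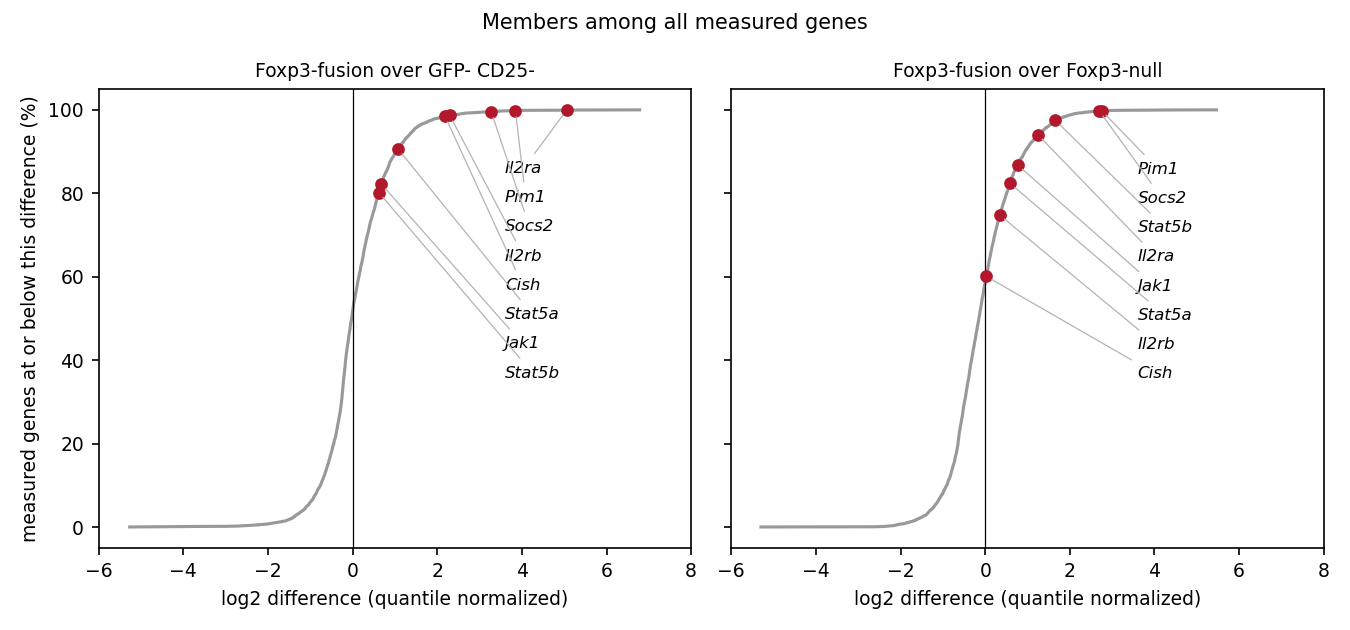
Share of measured genes (vertical axis, percent) at or below each log2 difference (horizontal axis, quantile normalized) for Foxp3-fusion over GFP- CD25- cells and over Foxp3-null cells, with the 8 measured genes as points on the curve. Socs2 and Pim1 sit at the top of both curves, and Cish moves to the middle of the second.

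Against GFP- CD25+ cells, 6 of 8 genes reached 2-fold upward in Foxp3-fusion cells and 0 downward, where 11.7% and 8.49% of all 6529 did. Socs2 was at least 9.68-fold higher, Pim1 4.91-fold, Jak1 4.37-fold and Stat5b 2.10-fold. Cish, at 1.63-fold, and Stat5a, at 1.503-fold, were under the threshold. On the deposited scale, where the median of all genes lay 0.40 log2 higher, Cish was 2.31-fold and Stat5a 2.15-fold higher, and 8 of 8 reached 2-fold upward and 0 downward, where 22.9% and 2.97% of all genes did. In Foxp3-null over GFP- CD25+ cells 3 of 8 genes reached 2-fold upward, Il2ra, Il2rb and Jak1, and 0 downward, where 8.59% and 7.61% of all 6557 did. Jak1 was 2.57-fold higher, whereas Pim1 lay 1.37-fold lower, under the threshold. The lowest Jak1 level, in GFP- CD25+ cells, enters both comparisons.

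The other genes of the pathway were taken from 5 lists. Among cytokines and receptors of the common gamma chain, Il2 itself read 3.10 to 3.71 log2 and Il15ra 3.29 to 3.37, both under the floor everywhere. Of 12 genes listed, 4 were above the floor in Foxp3-fusion or GFP- CD25- cells. Il7r, which encodes the IL-7 receptor chain, read 9.93 log2 in Foxp3-fusion cells, 9.41 in Foxp3-null cells, 8.22 in GFP- CD25+ cells and 11.23 in GFP- CD25- cells. It was highest where Il2ra was under the floor. Il4ra, the IL-4 receptor chain gene, read 6.93 and 6.76 log2 in Foxp3-fusion and Foxp3-null cells, against 5.24 and 5.71 in GFP- CD25+ and GFP- CD25- cells. Il4ra was thus 1.23 log2 higher in Foxp3-fusion than in GFP- CD25- cells, and 1.05 log2 higher in Foxp3-null cells, or 0.72 on the deposited scale.

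Of the other JAK and STAT genes, 1 of 5 measured reached 2-fold upward in Foxp3-fusion over GFP- CD25- cells and 0 downward, beside 10.6% and 5.93% of all genes. That gene was Stat4, which transmits IL-12 signals, at 6.79 log2 in Foxp3-fusion cells and under the floor in the other 3 populations. Jak2, Stat3, Stat6 and Tyk2 differed by -0.11 to -0.28 log2, and by -0.03 to 0.13 on the deposited scale, where Jak2 and Tyk2 were above 0. Of 16 other inhibitors and phosphatases, 1 reached 2-fold upward in Foxp3-fusion over GFP- CD25- cells and 0 downward. Of all genes, 10.6% and 5.93% did. The 1 was Socs3, another cytokine-signal inhibitor, by 1.07 log2. In Foxp3-fusion over Foxp3-null cells 3 of these 16 reached 2-fold upward and 1 downward, where 9.12% and 8.07% of all genes did. The 3 were the ubiquitin ligase genes Cblb, by 1.64 log2, and Cbl, by 1.19, and Pias2, by 1.37, which encodes an inhibitor of activated STAT proteins. Pias4 was lower by 1.19 log2. On the deposited scale 7 of the 16 reached 2-fold upward and 0 downward, where 21.5% and 2.29% of all genes did, and Pias4 was lower by 0.75 log2. Cblb was lowest in Foxp3-null cells, at 8.54 log2, against 10.18 in Foxp3-fusion cells.

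Of the adaptors and kinases of the Ras and PI3K branches, 0 of 9 measured reached 2-fold upward in Foxp3-fusion over GFP- CD25- cells and 1 downward, where 10.6% and 5.93% of all genes did. Pik3ca, a catalytic subunit gene of PI3K, was lower by 1.01 log2, and by 0.72 on the deposited scale. Pik3cd, which encodes the catalytic subunit typical of lymphocytes, read 10.42 log2 in Foxp3-fusion cells, 12.20 in Foxp3-null cells, 11.41 in GFP- CD25+ cells and 10.89 in GFP- CD25- cells. Pik3cd was thus 1.31 log2 higher in Foxp3-null than in GFP- CD25- cells, or 0.98 on the deposited scale, under 2-fold. In Foxp3-fusion over Foxp3-null cells it was lower by 1.78 log2, and by 1.20 on the deposited scale.

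Genes known as STAT5 targets, other than Cish, Socs2, Pim1 and Il2ra, did not run together. Of 19 measured in Foxp3-fusion over GFP- CD25- cells, 7 reached 2-fold upward and 4 downward, where 10.6% and 5.93% of all genes did. Their median was 0.34 log2, against -0.02 over all genes. The 6 farthest apart began with Id2, which encodes an inhibitor of E proteins and was lower by 4.14 log2. The others were higher: the TNF receptor family genes Tnfrsf1b by 3.62 log2, Tnfrsf4 by 3.35 and Tnfrsf18 by 2.89, the sort gene Foxp3 by at least 3.53, and Ikzf2, which encodes the transcription factor Helios, by 2.06. Those 5 are also known as genes of regulatory T cells. Among smaller differences, Myc, a growth regulator, was 1.37 log2 higher, and Lta, the lymphotoxin alpha gene, was at least 1.09 log2 higher. The cell survival gene Bcl2 was lower by 1.60 log2 and the cyclin gene Ccnd3 by 1.66. The survival gene Mcl1 differed by 0.34 log2 and Bcl2l1 by at least 0.16. In Foxp3-fusion over Foxp3-null cells 2 of 19 reached 2-fold upward and 3 downward, where 9.12% and 8.07% of all genes did. The 2 higher genes were Myc, by 1.63 log2, and the sort gene Foxp3. The 3 lower genes were Id2, by 1.56 log2, Bcl6, which encodes a repressor that STAT5 is known to lower, by 1.20, and Lta, by 1.05. Bcl6 read 8.13 log2 in Foxp3-fusion cells, 9.33 in Foxp3-null cells, 10.35 in GFP- CD25+ cells and 8.86 in GFP- CD25- cells. On the deposited scale 6 of the 19 reached 2-fold upward and 0 downward in that comparison, beside the 21.5% and 2.29% of all genes. The related kinase genes Pim2 and Pim3 did not follow Pim1. Pim2 read 4.996 log2 in Foxp3-fusion cells, under the floor, and 6.29 in Foxp3-null cells. Pim3 read 8.00 log2 in Foxp3-fusion cells and 8.58 in Foxp3-null cells, but on the deposited scale its difference was 0.05 log2.

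**Figure D5:**
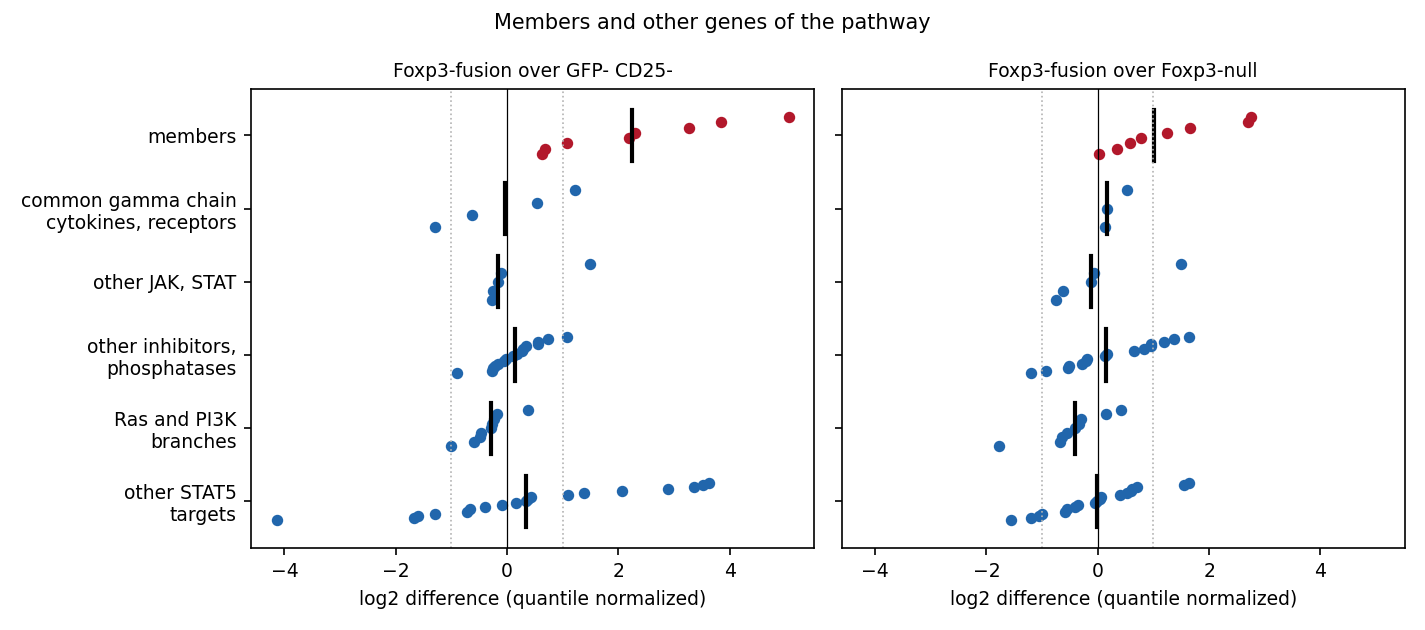
Log2 difference (horizontal axis, quantile normalized) of the members and of 5 lists of other pathway genes, 1 point per measured gene with lower bounds at their bound, black bars at the medians and dotted lines at 2-fold. The members' median, drawn with the sort gene Il2ra, is 2.24 log2 in Foxp3-fusion over GFP- CD25- cells, and the other lists' medians lie between -0.29 and 0.34.

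The genes most like Il2rb, Cish, Socs2 and Pim1 were found by the Euclidean distance between mean-centred log2 values over the 4 arrays, among 6865 other genes above the floor on at least 1 array. Nearest to Cish were Plcb4, at a distance of 0.098 log2, Cyth3 at 0.191, and Ikzf2 at 0.257. Nearest to Il2rb were Mpp1 at 0.110, Syt11 at 0.257 and Eif3h at 0.317. Socs2 was farther from its nearest genes, S100a6 at 0.516, Hdac9 at 0.526 and Gbp3 at 0.534. Nearest to Pim1 were Niban1 at 0.338, P2ry10 at 0.619 and Gbp3, an interferon-induced GTPase gene, at 0.655. Among the members, Socs2 and Pim1 were the closest pair, at 1.12, followed by Stat5a and Stat5b at 1.13. With 4 points, such closeness is a description of these arrays only.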

How the data were processed

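Signals were read from the deposited table of 45101 probe sets by 4 arrays. RNA went through column extraction and 2 rounds of amplification into biotinylated cRNA, per the labels' protocols. The deposited values are on a log scale, taken as log2 from their range; the authors' background correction, summarisation and normalization are not given in the sources used here. Groups came from sample titles; the description of the Foxp3(gfpko/wt) sample repeats that of the gfp/gfp samples, and its title and strain entry decided its group.

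After 64 control probe sets were left out, values were quantile normalized (numpy 2.4.6, scipy 1.17.1). The platform annotation named 34945 probe sets by 1 gene, 932 by several and 9160 by none; 34741 of the first matched the RefSeq table of GRCm38.p6, and 0 symbols changed. For the floor, the 90th percentile over 46 probe sets of genes of other tissues was taken on each array, and the highest was used. Afp, on that list, read above the floor on all 4 arrays; without it the floor was 4.46 log2. That alternative was chosen after seeing the data.

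With 1 array per group no test was made and no p-value is given. A gene was counted at 2-fold. "At least" marks a bound, where 1 of the arrays was at the floor; where both were, no difference was formed. Named genes were the members, members of the 5 pathway lists at least 2-fold apart (at most 6 per list and comparison), and the 3 nearest genes of Il2rb, Cish, Socs2 and Pim1; other list genes were named after their values were seen. Members and lists were chosen with earlier results of these data known. Alternatives were the deposited scale, median centring, other floors, other choices of probe set, and other fold thresholds. Counting was tested on simulated data with known changes.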

Additional observations from a re-analysis of the deposited data

How the results depend on the processing

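No paired analysis was possible because each group had 1 array and no replicate number. Of 28 differences of a member at 2-fold or more, 27 stayed so on the deposited scale and 27 with median centring. With a floor 1 log2 unit higher 23 stayed. With no floor 28 stayed, and with the lower floor without Afp 28. A lower floor can only keep or widen these differences, so those counts of 28 could not have been smaller. Leaving out probe sets that match several transcripts removed Stat5a and Stat5b, and the other measured members kept their main probe set. The 24 of 24 calls with a value that stayed there are therefore the same values and no check of them. With the median over probe sets only 11 of 17 with a value stayed, and 1 reversed direction. Differences that passed 2-fold on the deposited scale alone were Jak1 and Stat5a in Foxp3-fusion over Foxp3-null cells and Cish and Stat5a in Foxp3-fusion over GFP- CD25+ cells. In Foxp3-fusion over GFP- CD25- cells the members' median log2 difference, Il2ra included, was 3.03 with no floor, 3.07 with the lower floor and 1.24 with the higher floor. It was 0.81 with the median over probe sets, which takes in probe sets near background. In Foxp3-fusion over Foxp3-null cells it was 1.60 on the deposited scale, and in Foxp3-null over GFP- CD25- cells it was 1.53 without probe sets matching several transcripts. With the median over probe sets, 2 members were 2-fold apart in Foxp3-fusion over GFP- CD25-, 2 in Foxp3-null over GFP- CD25-, 1 in Foxp3-fusion over Foxp3-null, 2 in Foxp3-fusion over GFP- CD25+ and 1 in Foxp3-null over GFP- CD25+ cells. The Foxp3-fusion over GFP- CD25+ median was then 0.71, and Il2ra turned to -0.12 log2 in Foxp3-null over GFP- CD25+ cells. The second brightest probe sets left fewer genes measured and gave counts of 3, 1, 2, 3 and 1 in the same order. Cish has 1 probe set and kept it in this setting, so its differences were the main ones. The 1 in Foxp3-null over GFP- CD25- cells was Cish. The count was 2 in GFP- CD25+ over GFP- CD25- cells. The medians were -0.34 there and 1.52 in Foxp3-null over GFP- CD25+ cells, both over Jak1 and Cish alone. Counts in this paragraph take both directions together. With the higher floor the count was 3 in Foxp3-null and 2 in GFP- CD25+ over GFP- CD25- cells. The first included Stat5b and the second Jak1, both lower. In the second, Cish and Pim1 were then under 2-fold. A 3-fold threshold gave 3 and 1 in these comparisons and 1 in Foxp3-null over GFP- CD25+ cells. In the last, 1.5-fold gave 5, with Stat5b lower among them. Shares of all genes are not given for these probe set choices, floors and thresholds. Those counts therefore show only how the calls move with the setting.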
